A study of Oryza sativa with 24 samples.

Results

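The expansin genes of rice were followed across the 24 Affymetrix rice genome arrays of this series. Members were all genes whose symbol or synonym in the rice gene table read EXPA, EXPB, EXLA or EXLB plus a number, with or without an Os prefix, which gave 49 of the 39387 genes in that table. Of these, 29 genes had a probe set annotated to that gene alone, and they were read by 33 of the 57258 probe sets tested. The 33 comprised 16 probe sets for 14 of 29 EXPA genes, 12 for 11 of 15 EXPB genes and 5 for 4 of 4 EXLA genes, whereas the only EXLB gene had none. The 20 genes without such a probe set were EXPA9, EXPA11 to EXPA15, EXPA17 to EXPA22, EXPA25, EXPA28, EXPA33, EXPB5, EXPB14, EXPB15, EXPB16 and EXLB1, and they were not analysed here. Arrays were made from roots and shoots of 2 rice genotypes, Dular, a traditional genotype that tolerates low phosphate (Pi), and PB1 (Pusa Basmati-1), a modern genotype that is sensitive to it. Seedlings were 15 days old and grew in nutrient solution with either 1 µM Pi (-Pi) or 320 µM Pi (+Pi). The 8 groups were Dular root -Pi, Dular root +Pi, PB1 root -Pi, PB1 root +Pi and the same 4 in shoots, with 3 biological replicates each. Each RNA sample was a pool of 3 seedlings, so the errors given below describe the spread between pools. A lower value in such bulk tissue can come from fewer cells of a type or from less RNA per cell, which cannot be told apart.

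Expansins are small secreted proteins that loosen the plant cell wall at acid pH without cutting its polymers, and so let a growing cell extend. Alpha-expansins (EXPA) and beta-expansins (EXPB) both have this activity. Grasses carry many EXPB genes, among them the pollen allergens of this family, whereas the expansin-like proteins (EXLA and EXLB) share the fold but have no shown loosening activity. In rice roots, EXPA8 and EXPB2 have been linked to growth of the root system, EXPA10 to root elongation and aluminium, and EXPA17 and EXPB5 to root hairs.

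Values were log2 signals centred by the authors on each probe set's own median over the 24 arrays. A value of 0 was therefore that median, differences between groups were read within a probe set, and the levels of different genes could not be set against each other. Array medians lay between -0.03 and 0.03. Correlations between replicates were computed on these centred values, from which differences in level between probe sets are removed. They cannot be set beside correlations of uncentred signals. The mean r per array was 0.861 to 0.959 in 7 groups, against 0.587 to 0.755 for the PB1 shoot -Pi arrays, which stood apart. Their part in the results was not tested beyond leaving out each array in turn and fits to fewer groups, some of which left these arrays out. Of the tissue markers looked up, 6 root and 6 shoot probe sets were found. The silicon transporters LSI1 and LSI2 averaged 2.85 to 6.83 in root groups and -6.03 to -2.76 in shoot groups, and the first probe set for Rubisco activase (RCA) averaged -7.61 to -1.47 in root groups and 1.41 to 2.17 in shoot groups. Over the whole lists, 3 of 6 root-marker probe sets were called higher in roots than in shoots in Dular -Pi, 6 in Dular +Pi and 5 in both PB1 comparisons. The exceptions were NAAT1 (-0.51 in Dular -Pi, 0.94 in PB1 -Pi and -0.11 in PB1 +Pi) and, in Dular -Pi, NAS1 (0.56) and NAS2 (0.58). Of the 6 shoot-marker probe sets, 5 were called lower in roots in Dular -Pi, 4 in Dular +Pi, 4 in PB1 -Pi and 5 in PB1 +Pi. Differences between groups were tested with limma, with p-values adjusted by the Benjamini-Hochberg method over all 57258 probe sets, and calls required both an adjusted p no higher than 0.05 and a change of 2-fold or more (for interactions, the adjusted p alone).

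The expansin probe sets ranged from nearly flat to among the most variable on the array. The span between the lowest and the highest array had a median of 2.72 over the 33 expansin probe sets, 0.86 over all probe sets and 1.87 over those annotated to 1 gene, as all members are, on the log2 scale. A span under 1 was seen for 10 of 33 expansin probe sets, against 53% of all probe sets and 24.2% of those with 1 gene. These were EXPA4, EXPA10, EXPA26, EXPA31, EXPA32, EXPB9, EXPB10, a pair of the 3 probe sets of EXPA7 and the second of EXPB17. EXPB9 and EXPB10, which belong to the pollen type of beta-expansin, spanned 0.074 and 0.066. EXPA3 had a span of 11.18, EXPA8 of 8.83 and EXPB18 of 8.38. Of the 33 expansin probe sets, 12 were called in none of the 12 pairwise comparisons of Pi, genotype or tissue, against 66.9% of all probe sets and 45% of those with 1 gene. Besides the 10 flat probe sets, these were EXPA5 and EXPB4. All 5 EXLA probe sets were called in at least 1 of them.

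The subfamilies had different medians across the groups. For EXPB, the median centred level over its 12 probe sets was 1.15 in Dular root -Pi, 0.23 in Dular root +Pi, 0.65 in PB1 root -Pi and 0.33 in PB1 root +Pi. In shoots it was -0.10 in Dular -Pi, -0.34 in Dular +Pi, -0.53 in PB1 -Pi and -0.68 in PB1 +Pi. The EXLA median over 5 probe sets, of which 2 read EXLA2, ran another way. It was -0.79 in Dular root -Pi, 0.22 in Dular root +Pi and -0.31 in both PB1 root groups, and in shoots -0.39 in Dular -Pi, 0.59 in Dular +Pi, 0.59 in PB1 -Pi and 0.38 in PB1 +Pi. The EXPA median over 16 probe sets stayed between -0.17 and 0.16 in all 8 groups. It says little of the varying members, as 7 of the 16 spanned under 1. Group means of single EXPA probe sets ran from -5.67 (in Dular root +Pi) to 6.62 (in Dular root -Pi). These are descriptions of the listed probe sets, and no test was made over a subfamily.

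**Figure D1:**
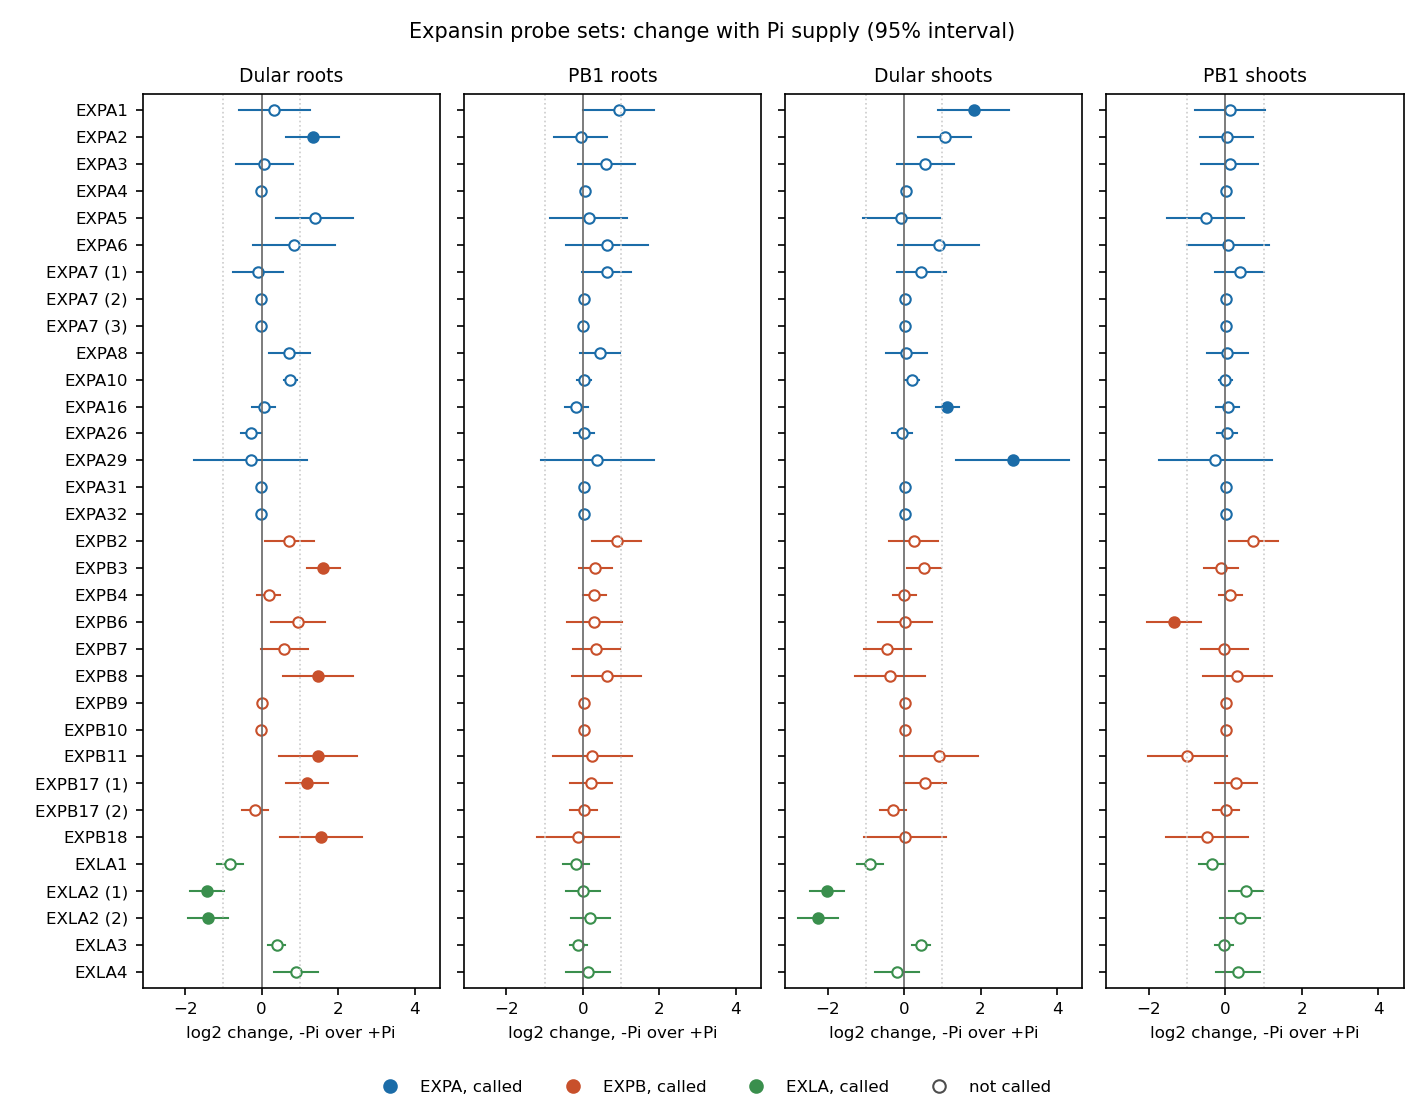
Log2 change with Pi supply (-Pi over +Pi, x axis, with 95% intervals) of each of the 33 expansin probe sets (rows) in Dular roots, PB1 roots, Dular shoots and PB1 shoots. Filled points passed the test and 2-fold, open points did not, dotted lines mark 2-fold, and numbers in brackets separate probe sets of a gene (EXLA2 (1) is its _at and (2) its _x_at probe set). The 8 filled points in Dular roots were 5 EXPB and 1 EXPA probe sets to the right and both EXLA2 probe sets to the left, and PB1 roots had no filled point.

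The first question was which expansins responded to Pi deficiency. In Dular roots, 8 of 33 expansin probe sets changed, against 7.56% of all probe sets (4.12% higher, 3.44% lower) and 12.8% of those annotated to 1 gene. They stood for 7 genes: EXPB3, EXPB8, EXPB11, EXPB17, EXPB18 and EXPA2 were higher under -Pi, and EXLA2 was lower on both of its probe sets. Without Dular root +Pi replicate 2 the count was 5, against 6.94% of all probe sets. By subfamily, 5 of 12 EXPB probe sets rose, with a median change of 0.83 on the log2 scale. Of the EXPA probe sets 1 of 16 rose, with a median of 0.02. Of the EXLA probe sets 2 of 5 fell, both of EXLA2, which is 1 of 4 genes. The EXLA median was -0.82, with EXLA2 supplying 2 of the 5 values, and the EXLA changes ran from -1.44 to 0.90. The median over all probe sets was -0.01. Non-overlap of the arrays of both groups, given below for single genes, was common, as it held for 34.6% of all probe sets when -Pi was set against +Pi in roots of Dular and 56% in those of PB1, and for 60.7% and 15.9% in shoots of Dular and of PB1.

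EXPB3, a beta-expansin also described in elongating internodes of deepwater rice, had centred log2 values of 0.66, 0.78 and 0.66 in Dular roots under -Pi, against -0.73, -1.08 and -0.93 under +Pi. In PB1 roots the values were 0.89, 1.10 and 0.60 under -Pi, against 0.05, 0.53 and 1.03 under +Pi. The Dular groups did not overlap, with Dular +Pi the low group, while the PB1 groups overlapped. The change in Dular roots was 1.62 ± 0.21 on the log2 scale (SE), a 3.07-fold increase (adjusted p = 1.5e-05), and in PB1 roots it was 0.33 (95% interval -0.11 to 0.76).

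EXPB11, another beta-expansin found in deepwater internodes, gave 1.55, 1.57 and 1.64 in Dular roots under -Pi, against 0.15, -0.05 and 0.26 under +Pi. The -Pi arrays lay close together and above every +Pi array. The change was 1.47 ± 0.49 (SE), or 2.77-fold, with an adjusted p of 0.0438. Whichever of the 6 arrays was left out, the call was lost, at a change of 1.39 to 1.54 and an adjusted p of 0.0756 to 0.124. That SE pools the spread within all 8 groups. The call was kept in a fit to root arrays and in a fit to Dular root arrays alone. It was lost in a test without moderated variances (adjusted p = 0.0526). EXPB17 was read by a pair of probe sets that disagreed. Its varying probe set had 0.74, 0.54 and 0.39 in Dular roots under -Pi, against -0.39, -0.52 and -0.97 under +Pi, with no overlap and a change of 1.18 ± 0.26 (SE, 2.27-fold, adjusted p = 0.00289). Its nearly flat probe set changed by -0.16 (adjusted p = 0.623).

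EXPB8 and EXPB18, for which the groups overlapped, rested on a wider spread between replicates. EXPB8 gave 5.62, 4.20 and 5.69 in Dular roots under -Pi, against 3.76, 2.98 and 4.34 under +Pi, so that the highest +Pi array lay above the lowest -Pi array. The change was 1.48 ± 0.43 (SE), or 2.78-fold (adjusted p = 0.0218), and it missed the threshold without +Pi replicate 2 (1.12, adjusted p = 0.128), -Pi replicate 1 (1.25, adjusted p = 0.107) or -Pi replicate 3 (1.22, adjusted p = 0.102). EXPB18 gave 3.62, 4.02 and 2.88 in Dular roots under -Pi, against 0.82, 2.07 and 2.95 under +Pi. The +Pi arrays were spread out, with replicate 1 the lowest. The change was 1.56 ± 0.51 (SE), or 2.94-fold (adjusted p = 0.0407), and was 0.99 with that array left out (adjusted p = 0.233). EXPB18 also missed the threshold without +Pi replicate 2 (adjusted p = 0.0795), -Pi replicate 1 (adjusted p = 0.113) or -Pi replicate 2 (adjusted p = 0.16). For both genes the call rested on the spread shared over all 8 groups, as the adjusted p was 0.188 for EXPB8 and 0.215 for EXPB18 when Dular root arrays were fitted alone.

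EXPA2, an alpha-expansin known from growing internodes, was the only EXPA probe set called in roots. It gave 0.52, 0.47 and 0.61 in Dular roots under -Pi, against -1.06, -0.89 and -0.44 under +Pi. The groups did not overlap, and the change was 1.33 ± 0.33 (SE), or 2.52-fold (adjusted p = 0.00724). EXPA5 had a change of similar size, with 0.95, 0.83 and 0.90 in Dular roots under -Pi against -0.74, -0.38 and -0.37 under +Pi, but its adjusted p was 0.052 (1.39 ± 0.48, SE). Its arrays spread widely elsewhere, as in PB1 shoots under -Pi, where they read 0.70, -1.97 and -0.46. EXPA10 showed a small difference with little spread. Its values were 0.30, 0.22 and 0.41 in Dular roots under -Pi, against -0.46, -0.55 and -0.32 under +Pi, a change of 0.75 (adjusted p = 2.95e-06) that was below 2-fold and so was not called. The root-linked genes EXPA8 (0.72, adjusted p = 0.0578) and EXPB2 (0.72, adjusted p = 0.129) did not pass the test with Pi in Dular roots.

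EXLA2, an expansin-like gene, was the only member that fell with Pi deficiency in Dular roots. Its _at probe set read -0.94, -0.99 and -1.23 in Dular roots under -Pi, against 0.14, 0.43 and 0.57 under +Pi. Its _x_at probe set, of a class whose probes may also bind related transcripts, read -0.82, -1.24 and -1.51 under -Pi, against 0.09, 0.22 and 0.33 under +Pi. On both probe sets every -Pi array lay below every +Pi array. The change was -1.44 ± 0.21 (SE, 2.71-fold lower, adjusted p = 6.02e-05) on the first and -1.41 ± 0.25 (2.65-fold lower, adjusted p = 0.000396) on the second. EXLA1 had a change of -0.82 (adjusted p = 0.0012), with -0.57, -0.62 and -0.64 under -Pi against 0.17, 0.21 and 0.24 under +Pi, which was below 2-fold. The remaining EXLA genes had positive values below 2-fold, 0.39 for EXLA3 (adjusted p = 0.017) and 0.90 for EXLA4 (adjusted p = 0.0254).

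**Figure D2:**
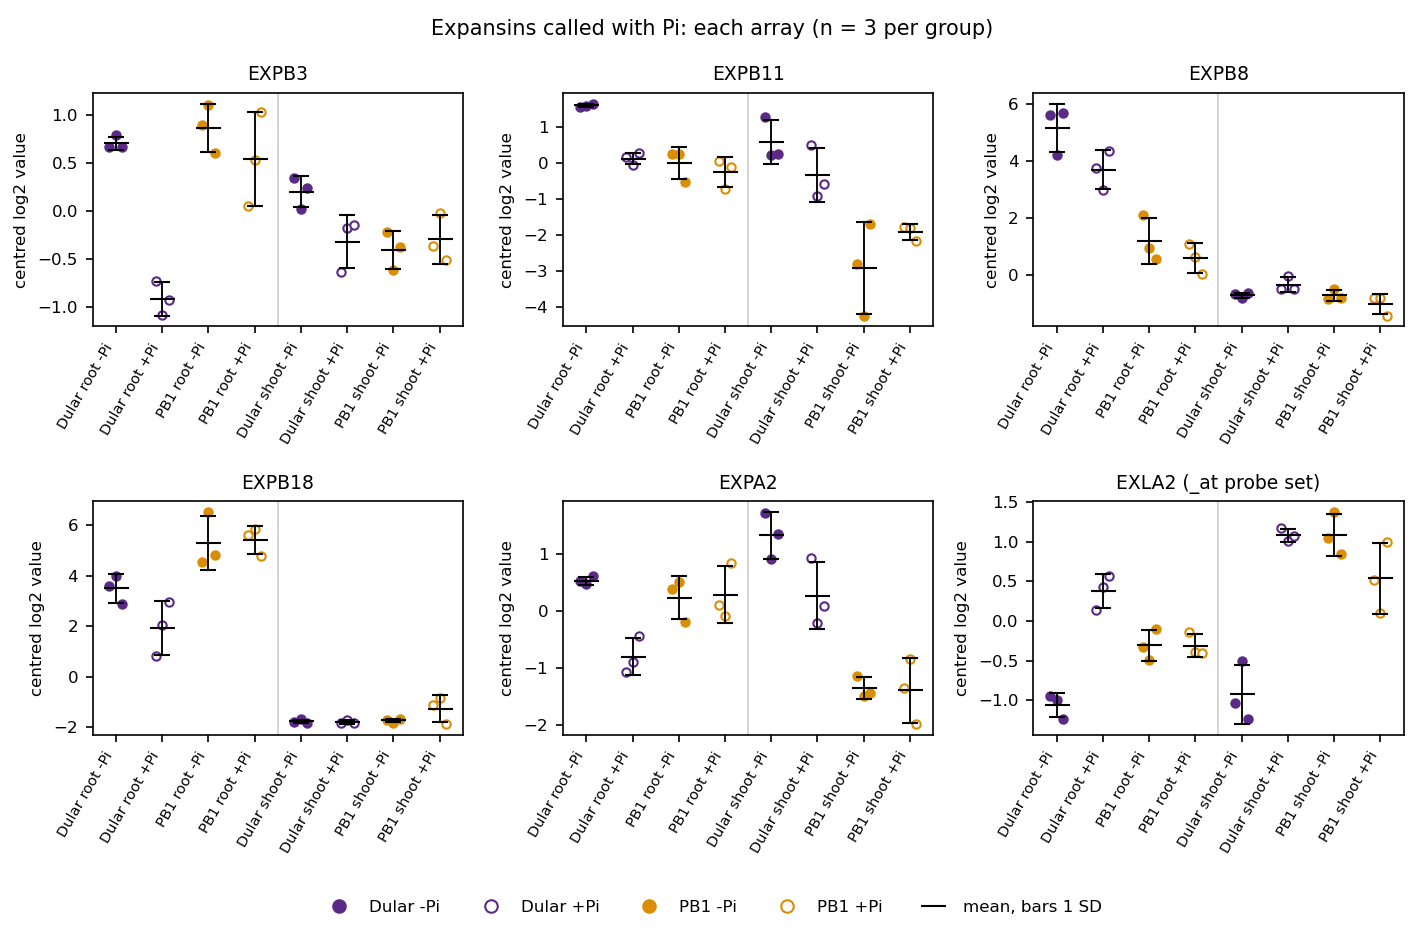
Centred log2 value (y axis) of every array for 6 members called with Pi in Dular roots, EXPB3, EXPB11, EXPB8, EXPB18, EXPA2 and EXLA2 (_at probe set), in the 8 groups (x axis, roots left of the line, -Pi before +Pi). Bars give the mean and 1 SD (n = 3), and a reader should see Dular root +Pi lie apart from Dular root -Pi for EXPB3 (-0.92 ± 0.18 against 0.70 ± 0.07 in -Pi), while EXPB8 and EXPB18 overlap.

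In PB1 roots, limma called 0 of 33 expansin probe sets with Pi, against 4.81% of all probe sets and 7.86% of those with 1 gene. At an unadjusted p under 0.05 there were 3, and a test of each probe set without moderated variances called 0. Without PB1 root +Pi replicate 1 limma called 2, against 4.9% of all probe sets. EXPB2 had the lowest adjusted p of those named here, with 2.18, 2.30 and 1.79 in PB1 roots under -Pi against 1.74, 0.58 and 1.29 under +Pi. These groups did not overlap, and the change was 0.88 (95% interval 0.24 to 1.52, adjusted p = 0.0609). EXPA1 changed by 0.93 (adjusted p = 0.155). The median change in PB1 roots was 0.27 for EXPB, 0.04 for EXPA and 0.01 for EXLA.

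Whether a gene passed in Dular and not in PB1 does not show that the genotypes differ, so the difference in response was tested directly (Dular minus PB1). In roots it was called for 5 of 33 expansin probe sets, against 11.7% of all probe sets and 18.9% of those with 1 gene. EXPB3 differed by 1.29 ± 0.29 (SE, adjusted p = 0.0074) and EXPA10 by 0.72 ± 0.12 (adjusted p = 0.000558). EXPA10 read 0.05, 0.26 and 0.21 in PB1 roots under -Pi against 0.05, 0.09 and 0.29 under +Pi, groups that overlapped. EXLA2 differed by -1.44 ± 0.30 (adjusted p = 0.00349) on its _at and by -1.60 ± 0.35 (adjusted p = 0.00546) on its _x_at probe set. Its _at values in PB1 roots were -0.33, -0.49 and -0.10 under -Pi, against -0.14, -0.39 and -0.40 under +Pi. EXLA3 differed by 0.51 ± 0.16 (adjusted p = 0.0433), a call that was lost without any 1 of 8 arrays, in a fit to root arrays alone (adjusted p = 0.0936) and after quantile normalization (0.23, adjusted p = 0.584). For the other genes called in Dular roots the difference did not pass: 1.39 for EXPA2 (95% interval 0.40 to 2.37, adjusted p = 0.0635), 0.96 for EXPB17 (adjusted p = 0.0974), 1.68 for EXPB18 (adjusted p = 0.124), 1.23 for EXPB11 (adjusted p = 0.205) and 0.86 for EXPB8 (adjusted p = 0.306). These tests use the same Dular arrays as the Pi comparison above.

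Shoot markers also moved with Pi in Dular roots. Of the 6 shoot-marker probe sets (Rubisco activase and a chlorophyll a/b-binding protein), 5 were lower in Dular roots under -Pi than under +Pi, with a median change of -3.50, the first RCA probe set averaging -7.61 under -Pi against -3.67 under +Pi. In PB1 roots the median change was -0.70. Among the root-marker probe sets, 2 of 6 fell in Dular roots under -Pi, the nicotianamine synthases NAS1 and NAS2. NAS1 averaged 0.51 under -Pi against 9.60 under +Pi, and NAS2 averaged 0.32 against 7.94. The other root-marker probe sets, LSI1 and LSI2 among them, were not called with Pi in Dular roots. The part of these shifts in the expansin results was not tested.

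In Dular shoots, 5 of 33 expansin probe sets changed with Pi, against 2.34% of all probe sets (1.16% higher, 1.18% lower) and 3.71% of those with 1 gene. EXPA1, EXPA16 and EXPA29 were higher under -Pi, and EXLA2 was lower on both probe sets. Without Dular shoot +Pi replicate 2 the count was 3, against 2.04% of all probe sets. EXPA16 had little spread, with -0.89, -0.85 and -0.56 under -Pi against -2.18, -1.78 and -1.73 under +Pi. Its groups did not overlap, and the change was 1.13 ± 0.14 (SE), or 2.19-fold (adjusted p = 6.82e-05). Without +Pi replicate 1 it was 0.99 (adjusted p = 0.000361), just below 2-fold.

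EXPA29 had the largest change in Dular shoots but wide spread, with 1.13, 0.13 and 1.25 under -Pi against -0.25, -3.16 and -2.59 under +Pi. The groups did not overlap, and +Pi replicate 1 was far above the other +Pi arrays. The change was 2.84 ± 0.70 (SE), or 7.14-fold (adjusted p = 0.0169). It missed the threshold without +Pi replicate 2 (2.26, adjusted p = 0.0927), +Pi replicate 3 (2.54, adjusted p = 0.0777), -Pi replicate 1 (adjusted p = 0.0606) or -Pi replicate 3 (adjusted p = 0.0765). EXPA1 read -1.39, -1.16 and -1.67 under -Pi, against -3.32, -3.64 and -2.71 under +Pi, all -Pi arrays being higher. Its change of 1.82 ± 0.44 (SE, 3.53-fold, adjusted p = 0.0144) was 1.61 without +Pi replicate 2 (adjusted p = 0.0682). In a fit to shoot arrays alone EXPA29 and EXPA1 were not called (adjusted p = 0.0632 and 0.0992), and in a fit to Dular shoots alone none of EXPA29 (adjusted p = 0.215), EXPA1 (adjusted p = 0.0686) and EXPA16 (adjusted p = 0.0588) was.

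EXLA2 fell further in Dular shoots than it did in Dular roots, although the difference between tissues did not pass the test (0.57 with an adjusted p of 0.175 and 0.83 with an adjusted p of 0.12 on its probe sets). Its _at probe set read -1.04, -0.51 and -1.23 in Dular shoots under -Pi, against 1.17, 1.01 and 1.06 under +Pi. The _x_at probe set read -1.20, -0.79 and -1.68 under -Pi, against 1.03, 0.98 and 1.04 under +Pi. All -Pi arrays were low, all +Pi arrays were high and close together, and the changes were -2.01 ± 0.21 (SE, 4.02-fold lower, adjusted p = 1.1e-05) and -2.24 ± 0.25 (4.72-fold lower, adjusted p = 2.03e-05). EXLA1 changed by -0.90 (adjusted p = 0.00203), again below 2-fold. EXPA2 changed by 1.06 (95% interval 0.37 to 1.76, adjusted p = 0.0604).

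In PB1 shoots, 1 of 33 expansin probe sets changed, against 1.17% of all probe sets and 1.74% of those with 1 gene. This was EXPB6, a beta-expansin described in deepwater internodes, with -3.39, -3.57 and -2.91 under -Pi against -1.86, -1.41 and -2.56 under +Pi. The groups did not overlap, and the change was -1.35 ± 0.34 (SE), 2.54-fold lower (adjusted p = 0.0275). It was not called without +Pi replicate 1 (adjusted p = 0.0898), +Pi replicate 2 (-1.08, adjusted p = 0.128), -Pi replicate 1 (adjusted p = 0.0565) or -Pi replicate 2 (-1.20, adjusted p = 0.107), the PB1 shoot -Pi arrays being those that stood apart, nor in a fit to shoot arrays (adjusted p = 0.152) or PB1 shoots alone (adjusted p = 0.252). EXLA2 was not called there, with _at values of 1.04, 1.37 and 0.84 under -Pi against 0.52, 0.10 and 1.00 under +Pi (0.55, adjusted p = 0.179).

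The response of Dular minus that of PB1 in shoots was called for 3 of 33 expansin probe sets, against 3.27% of all probe sets and 6.03% of those with 1 gene. EXLA2 differed by -2.56 ± 0.30 (SE, adjusted p = 0.000171) on its _at and -2.62 ± 0.35 (adjusted p = 0.0006) on its _x_at probe set, and EXPA16 by 1.07 ± 0.20 (adjusted p = 0.00609). EXPA16 read -1.93, -1.75 and -1.69 in PB1 shoots under -Pi against -1.97, -1.75 and -1.85 under +Pi. EXPA29 differed by 3.09 (adjusted p = 0.11), EXPA1 by 1.70 (adjusted p = 0.176) and EXPB6 by 1.36 (adjusted p = 0.153), which did not pass. The response of Dular roots minus that of Dular shoots was called for 3 of 33, against 8.59% of all probe sets and 13.7% of those with 1 gene. EXPB3 responded more in roots by 1.10 ± 0.29 (adjusted p = 0.0261), as did EXPA10 by 0.54 ± 0.12 (adjusted p = 0.00738), whereas EXPA16 responded more in shoots (-1.08 ± 0.20, adjusted p = 0.00167). The EXPB3 difference was lost without any 1 of 6 arrays and after quantile normalization (0.85, adjusted p = 0.0964). The same difference in PB1 was called by limma for 0 of 33 probe sets, against 5.23% of all probe sets and 9.38% of those with 1 gene, with 1 at an unadjusted p under 0.05 and 0 without moderated variances. It was 1 without PB1 root -Pi replicate 3, PB1 shoot +Pi replicate 3 or PB1 shoot -Pi replicate 3, against 4.34%, 4.29% and 4.82% of all probe sets.

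The next question was how the genotypes differed at a given Pi supply. Whether the probes match both genotypes equally well was not tested, so a constant difference between Dular and PB1 is a difference in signal. In roots under -Pi, 10 of 33 expansin probe sets were called, 7 higher and 3 lower in Dular, against 14.3% of all probe sets (6.67% higher, 7.6% lower) and 23% of those with 1 gene. In roots under +Pi there were 13, with 8 higher and 5 lower in Dular, against 13.2% of all probe sets (5.5% higher, 7.69% lower) and 21.1% of those with 1 gene. These pairs of groups share no arrays. The arrays of Dular and PB1 did not overlap for 37% of all probe sets in roots under -Pi, 79.3% in roots under +Pi, 28.6% in shoots under -Pi and 31.3% in shoots under +Pi, so non-overlap by itself was no mark of these genes. In roots under +Pi the median difference over all probe sets was 0.0498 as deposited and 0.0055 with each array centred on its median. The tissue markers moved with genotype too. Of the 6 shoot-marker probe sets, 4 were lower in Dular roots than in PB1 roots at each Pi supply, with a median difference of -4.92 under -Pi and -2.12 under +Pi. Of the 6 root-marker probe sets, 1 was higher and 2 lower in Dular roots under -Pi, and 1 was higher under +Pi. The BioB hybridization control, read by 9 probe sets, was low on the PB1 root arrays. Its median difference was 4.21 under -Pi and 4.87 under +Pi for Dular over PB1 roots. The controls BioC, BioD and cre did not share this shift, with median differences from -0.31 to 0.45. The part of these shifts in the results was not tested.

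EXPB8 had the largest excess in Dular roots among the expansins. Under -Pi it read 5.62, 4.20 and 5.69 in Dular roots, against 2.12, 0.94 and 0.57 in PB1 roots, which was 15.5-fold higher in Dular (3.96 ± 0.43 on the log2 scale, SE, adjusted p = 1.19e-06). Under +Pi it read 3.76, 2.98 and 4.34 in Dular roots, against 1.10, 0.64 and 0.04 in PB1 roots, which was 8.59-fold higher (3.10 ± 0.43, adjusted p = 2.21e-05). All Dular root arrays lay above all PB1 root arrays. In shoots all 12 arrays of this gene lay between -1.43 and -0.04.

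EXPA6 was the reverse case. It read -4.44, -5.14 and -4.89 in Dular roots under -Pi, against -0.95, -0.45 and 0.33 in PB1 roots. Under +Pi it read -5.20, -5.85 and -5.94 in Dular roots, against -2.42, -0.96 and 0.43 in PB1 roots. Every Dular root array was low, and the signal was 22.1-fold lower in Dular under -Pi (-4.47 ± 0.51, SE, adjusted p = 1.86e-06) and 25.7-fold lower under +Pi (-4.68 ± 0.51, adjusted p = 1.3e-06). In shoots the Dular arrays of EXPA6 were among the higher, from 0.18 to 1.38, against -0.52 to 0.63 in PB1 shoots.

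EXPB18 was also lower in Dular roots. It read 3.62, 4.02 and 2.88 in Dular roots under -Pi, against 4.54, 6.54 and 4.84 in PB1 roots, and 0.82, 2.07 and 2.95 in Dular roots under +Pi, against 5.63, 5.85 and 4.80 in PB1 roots. Every PB1 root array lay above every Dular root array. Dular was 11.1-fold lower under +Pi (-3.48 ± 0.51, SE, adjusted p = 3.63e-05) and 3.48-fold lower under -Pi (-1.80 ± 0.51, adjusted p = 0.0107). The -Pi value was -1.19 without PB1 root -Pi replicate 2 (adjusted p = 0.0809) and -1.49 with Dular root -Pi replicate 3 left out (adjusted p = 0.0624). It was not called in a fit to root arrays (adjusted p = 0.0804) or to the compared groups alone (adjusted p = 0.124). The probe set of EXPA7 that varied was lower in Dular roots under -Pi, with -1.06, -1.12 and -1.44 in Dular against 0.12, 0.17 and 0.66 in PB1 (-1.52 ± 0.31, SE, adjusted p = 0.000715), while its flat probe sets gave no call.

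Several root-expressed members were higher in Dular roots at both Pi supplies. EXPA3 read 6.70, 6.28 and 6.87 in Dular roots under -Pi, against 4.97, 4.92 and 4.22 in PB1 roots (3.77-fold, 1.91 ± 0.35, SE, adjusted p = 0.000324). Under +Pi it read 6.40, 6.48 and 6.78 in Dular roots, against 5.08, 3.68 and 3.50 in PB1 roots (5.52-fold, adjusted p = 2.93e-05). EXPA8 was 2.77-fold higher in Dular roots under -Pi (adjusted p = 0.000169) and 2.29-fold under +Pi (adjusted p = 0.00111). EXPB2 was 2.42-fold higher under -Pi (adjusted p = 0.00314) and 2.71-fold under +Pi (adjusted p = 0.0011). For EXPA3, EXPA8 and EXPB2, all Dular root arrays lay above the PB1 root arrays of the same Pi supply.

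EXLA3 separated the genotypes with little spread between replicates. It read 1.73, 1.64 and 1.81 in Dular roots under -Pi, against -0.43, 0.03 and -0.29 in PB1 roots, 3.89-fold higher in Dular (1.96 ± 0.11, SE, adjusted p = 2.62e-10). Under +Pi it read 1.25, 1.31 and 1.45 in Dular roots, against -0.27, -0.16 and 0.09 in PB1 roots (2.74-fold, adjusted p = 1.52e-08). It was higher in Dular shoots as well, with 0.62, 0.40 and 0.29 under -Pi against -0.91, -0.74 and -0.77 in PB1 shoots (2.36-fold, adjusted p = 1.12e-07), and had a difference of 0.76 under +Pi (adjusted p = 4.6e-05) that was below 2-fold. All 12 Dular arrays of EXLA3 were above the PB1 arrays of the same tissue.

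The remaining calls in roots under -Pi were EXPB11 (3.03-fold higher in Dular, adjusted p = 0.0175) and EXPB6 (2.16-fold higher, adjusted p = 0.0169). EXPB11 was not called without PB1 root -Pi replicate 3 (1.35, adjusted p = 0.0849), and EXPB6 was not called without that array (0.85, adjusted p = 0.102) or without Dular root -Pi replicate 3 (1.01, adjusted p = 0.067). Under +Pi the remaining calls were EXLA1 (2.38-fold higher, adjusted p = 1.02e-05), EXLA4 (3.02-fold lower, adjusted p = 0.00017), EXPB3 (-1.45, adjusted p = 2.93e-05), EXPA2 (-1.09, adjusted p = 0.00955), EXPA29 (1.79, adjusted p = 0.0348) and EXPA1 (1.04, adjusted p = 0.047). For EXPB3 and EXPA2 these rest on the same low Dular root +Pi arrays as their Pi change. EXPA2 was not called without PB1 root +Pi replicate 3 (-0.81, adjusted p = 0.0612) or Dular root +Pi replicate 1 (-0.95, adjusted p = 0.0407, below 2-fold). EXPA29 overlapped between the genotypes, was 1.06 without PB1 root +Pi replicate 1 (adjusted p = 0.2) and had an adjusted p of 0.123 in a fit to the compared groups alone. EXPA29 and EXPA1 each lost the call without any 1 of 5 of the 6 arrays. EXPA1 was 0.74 without Dular root +Pi replicate 3 (adjusted p = 0.196) and 1.00 with each array centred on its median (adjusted p = 0.0775).

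In shoots under -Pi, 8 of 33 expansin probe sets differed between the genotypes, 6 higher and 2 lower in Dular, against 11.4% of all probe sets (5.9% higher, 5.49% lower) and 18.7% of those with 1 gene. EXPB11 read 1.27, 0.20 and 0.24 in Dular shoots, against -2.80, -4.25 and -1.70 in PB1 shoots, 11.2-fold higher in Dular (3.49 ± 0.49, SE, adjusted p = 2.39e-05). EXPA2 read 1.72, 0.91 and 1.36 in Dular shoots, against -1.13, -1.48 and -1.43 in PB1 shoots, 6.40-fold higher (2.68 ± 0.33, adjusted p = 5.82e-06). Both kept their call whichever array was left out, those of PB1 shoot -Pi included. EXPB6 was 3.48-fold higher in Dular shoots (adjusted p = 0.000476), EXLA3 2.36-fold, EXPA1 2.71-fold (adjusted p = 0.0209) and EXPA16 2.03-fold (adjusted p = 1.94e-05). EXLA2 was 4.04-fold lower on its _at and 4.28-fold lower on its _x_at probe set (adjusted p = 8.11e-07 and 3.47e-06). Without PB1 shoot -Pi replicate 2, EXPA1 was 0.97 (adjusted p = 0.134), and it also missed the threshold without PB1 shoot -Pi replicate 3 (adjusted p = 0.0608) or Dular shoot -Pi replicate 1 or 2 (adjusted p = 0.0546 and 0.075), and in a fit to shoot arrays (adjusted p = 0.0926) or to the compared groups alone (adjusted p = 0.197). EXPA16 dropped below 2-fold without Dular shoot -Pi replicate 3 (0.92) or PB1 shoot -Pi replicate 1 (0.95).

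In shoots under +Pi, 2 of 33 were called, both higher in Dular, against 10.3% of all probe sets (4.91% higher, 5.35% lower) and 16.3% of those with 1 gene. EXPA2 read 0.92, -0.21 and 0.09 in Dular shoots, against -1.35, -0.83 and -1.98 in PB1 shoots (3.15-fold, 1.66 ± 0.33, SE, adjusted p = 0.000945). EXPB11 read 0.49, -0.92 and -0.60 in Dular shoots, against -1.78, -1.81 and -2.18 in PB1 shoots (1.58 ± 0.49, adjusted p = 0.0242). Neither gene's groups overlapped, but EXPB11 was 1.16 without Dular shoot +Pi replicate 1 (adjusted p = 0.139) and 1.45 without PB1 shoot +Pi replicate 3 (adjusted p = 0.0869), where the count was 1, against 9.55% of all probe sets. EXPB11 was not called in a fit to shoot arrays (adjusted p = 0.137), and neither gene was in a fit to the compared groups alone (adjusted p = 0.0645 for EXPB11 and 0.0664 for EXPA2).

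The genotype difference in roots was then set against that in shoots, in a test added after seeing the data. Under -Pi it was called for 11 of 33 expansin probe sets, against 18.9% of all probe sets and 33.5% of those with 1 gene, with 8 positive and 3 negative (7 and 6 after quantile normalization, where 18.4% of all probe sets were called). Under +Pi it was called for 17 of 33, against 35.3% and 34.2%, with 11 positive and 6 negative (7 and 7 with each array centred, 7 and 6 after quantile normalization). The share of all probe sets called under +Pi moved as well, to 21.4% with each array centred, 15.7% after quantile normalization, and 16.6% to 47.4% with 1 array left out. It was lowest without PB1 shoot +Pi replicate 1, where 13 expansin probe sets were called, and highest without PB1 shoot +Pi replicate 3, where 21 were. EXPB8 had 3.96 ± 0.61 (SE, adjusted p = 0.000131) under -Pi and 2.42 ± 0.61 (adjusted p = 0.0103) under +Pi, so its excess in Dular was larger in roots. EXPA6 had -5.54 (adjusted p = 2.28e-05) under -Pi and -4.93 (adjusted p = 0.000124) under +Pi, its deficit in Dular being that of roots. EXPA2 had -2.38 (adjusted p = 0.00118) and -2.75 (adjusted p = 0.00053), its excess in Dular being that of shoots.

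**Figure D3:**
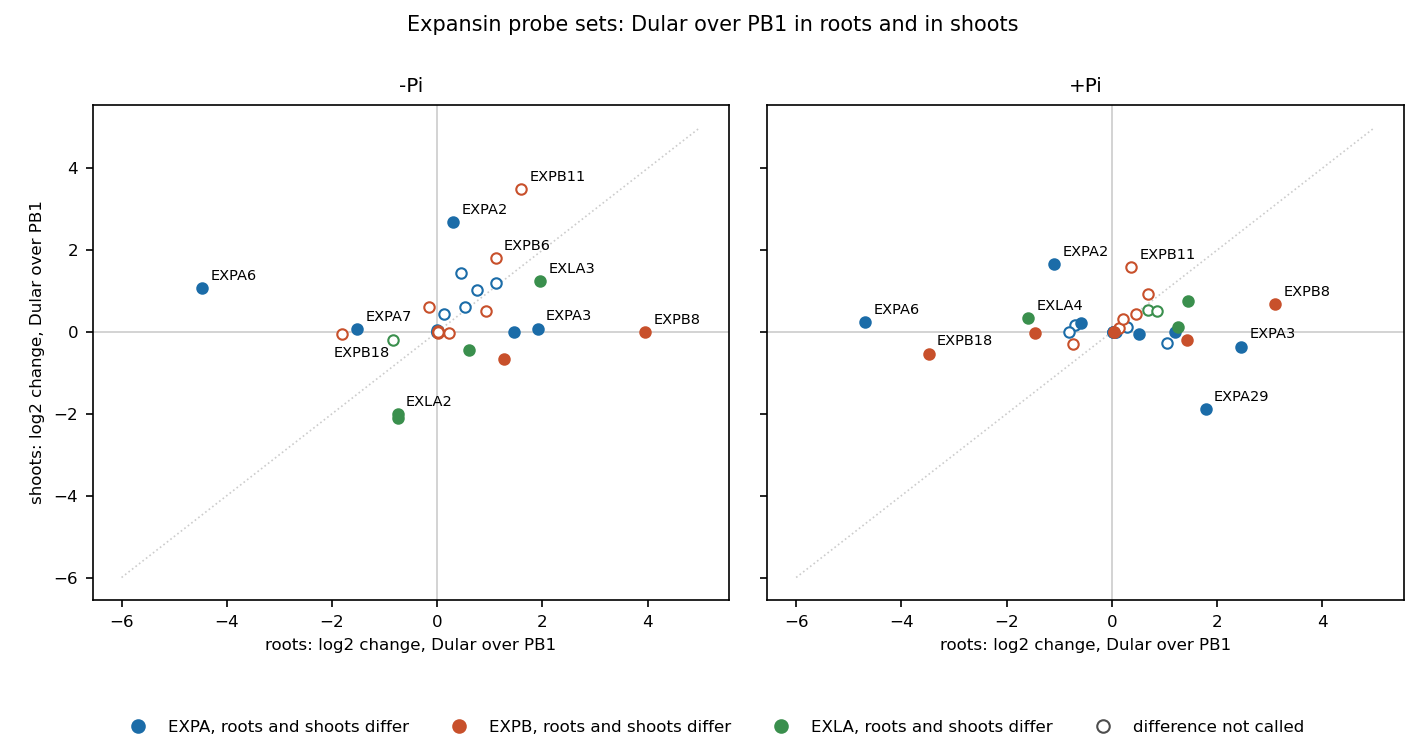
Log2 change of Dular over PB1 in roots (x axis) and in shoots (y axis) of each expansin probe set, under -Pi (left) and +Pi (right). Filled points had a called difference between roots and shoots, the dotted line marks equal differences, and genes beyond 1.5 in either tissue are named. EXPB8 lay at 3.96 in roots and EXPA6 at -4.47 in roots under -Pi, both far from the line, and EXPB11 at 3.49 in shoots.

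Tissue gave the widest contrasts of the family. In the 4 comparisons of roots with shoots, the calls were 13 of 33 in Dular -Pi (10 higher in roots, 3 lower), 15 in Dular +Pi (11 and 4), 15 in PB1 -Pi (12 and 3) and 13 in PB1 +Pi (11 and 2). Over all probe sets the shares called were 16.8%, 16.2%, 17.3% and 16.1% in the same order, and over those with 1 gene they were 28.9%, 27.8%, 30.1% and 28%. Those called higher in roots were 8.45%, 7.35%, 9.12% and 8.26% of all probe sets, and those called lower were 8.31%, 8.84%, 8.2% and 7.82%. Root and shoot arrays did not overlap for 36.2%, 79.4%, 34.6% and 38.1% of all probe sets. These comparisons share no arrays. The 9 genes EXPA1, EXPA3, EXPA8, EXPA16, EXPB2, EXPB6, EXPB7, EXPB8 and EXPB18 were higher in roots in all 4, 9 of 33 probe sets against 3.59% of all probe sets and 6.27% of those with 1 gene. The BioB median was -4.26 under -Pi and -5.11 under +Pi for PB1 roots over PB1 shoots. For Dular roots over Dular shoots it was -0.26 and -0.15. The medians of BioC, BioD and cre lay between -0.72 and 0.19 in these comparisons. The part of the BioB shift was not tested.

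EXPA3 lay between 3.50 and 6.87 on the 12 root arrays, against -4.31 to -3.50 on the 12 shoot arrays. All 3 Dular shoot +Pi arrays read -4.31. The root excess in the measured values was 10.38 (adjusted p = 8.48e-14) in Dular -Pi, 10.86 in Dular +Pi, 8.54 in PB1 -Pi and 8.04 in PB1 +Pi on the log2 scale. EXPA8 lay between 2.98 and 5.71 on root arrays, against -3.12 to -2.98 on shoot arrays, and the root excess was 8.28, 7.61, 6.80 and 6.40 in the same order. Over the root arrays EXPA3 spanned 3.37 and EXPA8 2.73, against 0.81 and 0.14 over the 12 shoot arrays. Whether these nearly flat shoot signals were above background could not be examined in centred values, and where they were not, the excess is only a lower bound.

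EXPB18 was higher in roots by 5.26 in Dular -Pi, 3.74 in Dular +Pi, 7.03 in PB1 -Pi and 6.68 in PB1 +Pi (SE 0.51 each), with all shoot arrays between -1.85 and -0.82. EXPB8 had 5.88, 4.03, 1.92 and 1.61 in the same order (SE 0.43 each). The root excess of EXPB18 was larger in PB1 and that of EXPB8 larger in Dular, differences that were called under +Pi for both genes and under -Pi for EXPB8 in the test given above. EXPB2 read 3.35, 3.20 and 3.54 in Dular roots under -Pi, against -1.53, -1.67 and -0.76 in Dular shoots, with an excess of 4.68, 4.21, 2.74 and 2.59 over the same 4 comparisons. EXPA1 had 3.99, 5.47, 4.98 and 4.17, EXPB6 had 4.01, 3.09, 4.70 and 3.05, EXPB7 had 3.36, 2.33, 2.94 and 2.55, and EXPA16 had 2.24, 3.31, 2.50 and 2.74. For EXPA1 and EXPA16 the smallest excess was that of Dular -Pi, where their shoot values were higher than under +Pi.

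Members lower in roots than in shoots were fewer, and none was called lower in all 4 comparisons. EXPA6 was 66.3-fold lower in Dular roots than in Dular shoots under -Pi (-6.05 ± 0.51, SE, adjusted p = 2.1e-08) and 63.6-fold lower under +Pi, while in PB1 the differences of -0.52 (adjusted p = 0.656) and -1.07 (adjusted p = 0.144) were not called. The varying probe set of EXPA7 was lower in Dular roots by -1.64 under -Pi (adjusted p = 0.000294) and -1.09 under +Pi (adjusted p = 0.00824). The +Pi value was -0.99 after quantile normalization, below 2-fold. The flat probe sets of EXPA7 gave no call. EXLA4 was lower in Dular roots by -1.19 under -Pi and -2.28 under +Pi. EXPA2 was lower in Dular roots under +Pi (-1.07, adjusted p = 0.014) and higher in PB1 roots under -Pi (1.58, adjusted p = 0.000862) and +Pi (1.68, adjusted p = 0.000523). Leaving out Dular shoot +Pi replicate 1 gave -0.74 for the first of these values (adjusted p = 0.0759), and leaving out Dular root +Pi replicate 1 gave -0.93 (adjusted p = 0.0547).

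The EXLA genes did not move together between tissues. EXLA3 was higher in Dular roots than in Dular shoots, by 1.30 under -Pi and 1.35 under +Pi. EXLA1 was lower in PB1 roots than in PB1 shoots, by -1.26 under -Pi and -1.42 under +Pi, with -1.01, -1.26 and -1.40 in PB1 roots under -Pi against -0.02, 0.03 and 0.10 in PB1 shoots. EXLA2 was lower in PB1 roots under -Pi, by -1.39 and -1.31 on its probe sets, and under +Pi by -1.13 on its _x_at probe set, which was -0.87 without PB1 shoot +Pi replicate 3.

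**Figure D4:**
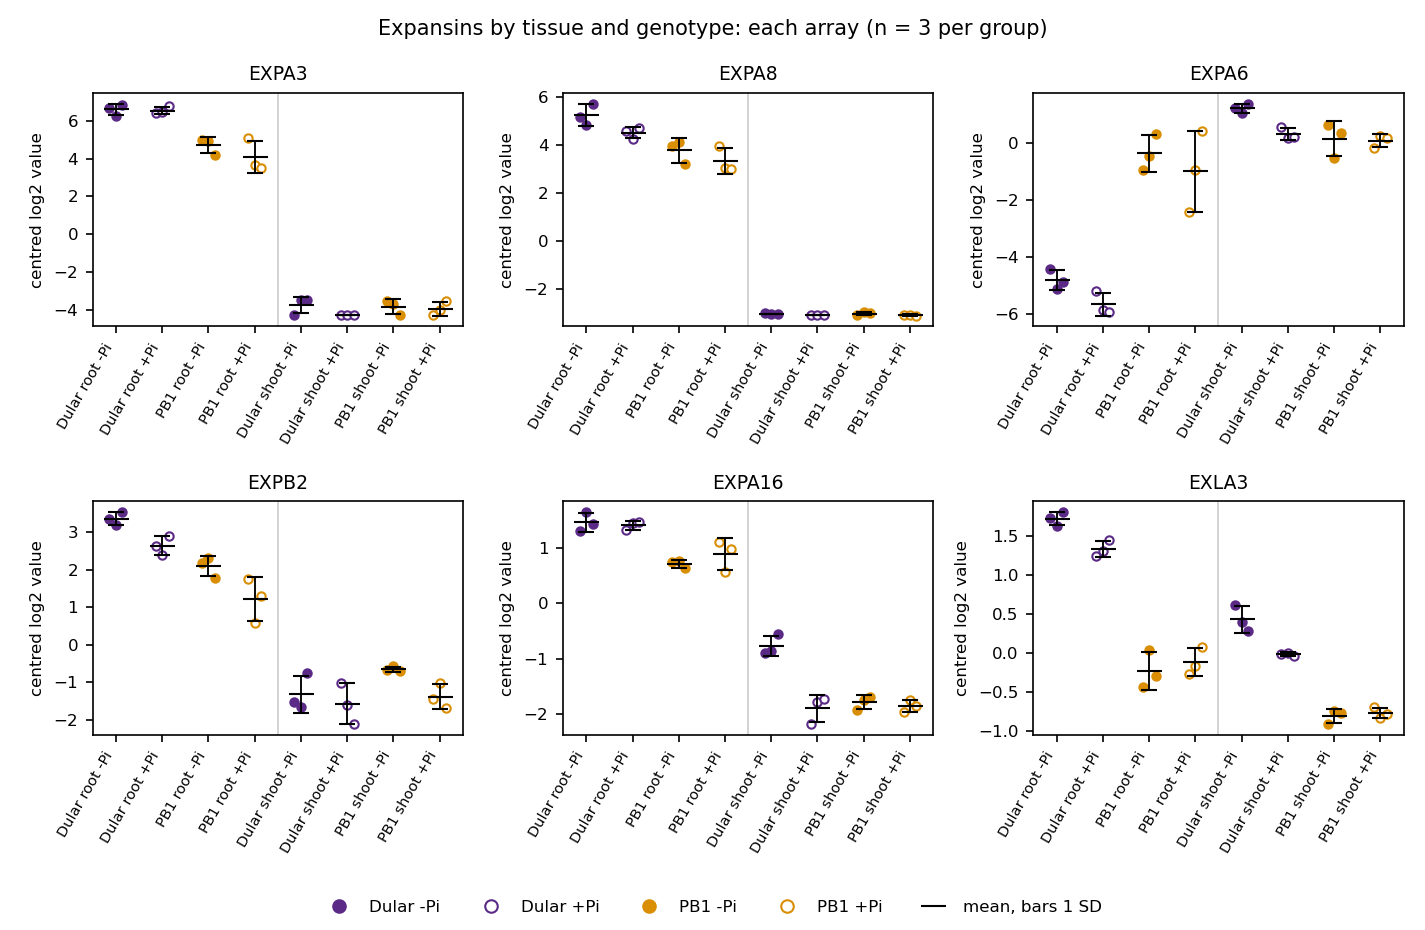
Centred log2 value (y axis) of every array for EXPA3, EXPA8, EXPA6, EXPB2, EXPA16 and EXLA3 in the 8 groups (x axis, roots left of the line, -Pi before +Pi, Dular before PB1). Bars give the mean and 1 SD (n = 3). EXPA3 and EXPA8 lie above 2.9 on every root array and below -2.9 on every shoot array, EXPA6 is low in Dular roots only, and EXLA3 is higher in Dular than in PB1 in both tissues.

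Some expansin genes lie next to each other in the gene table's assembly. EXPB6, EXPB2, EXPB3 and EXPB4 follow one another with 0 genes between, EXPB8 and EXPB7 have 1 gene between, and EXPA8 neighbours EXPA9 and EXPB11 neighbours EXPB14, which had no probe set. The members of the EXPB row did not share 1 pattern. With Pi in Dular roots, EXPB6 changed by 0.94 (adjusted p = 0.0631), EXPB2 by 0.72 (adjusted p = 0.129), EXPB3 by 1.62 (adjusted p = 1.5e-05) and EXPB4 by 0.18 (adjusted p = 0.507). EXPB6 and EXPB2 were called higher in roots in all 4 tissue comparisons. EXPB3 was called higher in roots in PB1 -Pi (1.27, adjusted p = 7.88e-05), and the EXPB4 probe set, of a class that may bind several transcripts, spanned only 1.19 over the arrays.

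Other genes of the wall were read beside the expansins. Of 13 probe sets for cellulose synthases (CESA), 9 rose in Dular roots under -Pi with a median change of 1.18, and 3 rose in PB1 roots with a median of 0.55. Called higher were 4.12% of all probe sets and 7.34% of those with 1 gene in Dular roots, and 2.55% and 4.22% in PB1 roots. Called lower were 3.44% and 5.5% in Dular roots, and 2.25% and 3.64% in PB1 roots. CESA1, a catalytic subunit, rose by 2.47 and 1.27 on its probe sets in Dular roots and by 1.88 on the first of them in PB1 roots (0.55 on the second, below 2-fold), and CESA6 by 1.70 in Dular roots and 1.07 in PB1 roots. Of 24 probe sets for cellulose synthase-like genes, 5 rose and 2 fell in Dular roots, among them CSLF8 (2.23) and CSLA9 (-1.81), and 3 rose and 1 fell in PB1 roots. Of 12 probe sets for endoglucanases (GLU), 4 rose in Dular roots and 1 in PB1 roots. Only 1 xyloglucan endotransglucosylase gene, XTH8, was found by its symbol. It changed by 0.30 in Dular roots and 0.10 in PB1 roots and was not called. The paper reports genes of this family, given by locus, as up-regulated in Dular roots under Pi deficiency. Those loci were not looked up here, so XTH8 does not stand for the family. The paper also counts expansins among the cell wall genes of which more were up-regulated in Dular roots than in PB1 roots. Its list of those genes was not matched to the probe sets here.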

How the data were processed

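The authors extracted the array signals with GC-RMA in GeneSpring and deposited log2 values, with each probe set centred on its median over all arrays. No scanner files were used here, so absolute levels, background and saturation could not be examined, and the number of arrays limits the precision. A total of 123 control probe sets were left out. Gene names came from the platform annotation, joined by gene identifier to a rice gene table (assembly ASM3414082v1, used for names and neighbours only). Values were fitted with 8 group means in limma 3.58.1 under R 4.3.3 (lmFit, contrasts.fit, eBayes) for 18 comparisons. The script was tested on simulated data. Members and lists were chosen with earlier results of these data known. Genes named were those called with Pi or in a genotype difference of the Pi response, the 5 largest calls in each direction of each genotype and tissue comparison, the EXLA genes and root-linked expansins (EXPA30 was not among the genes found). EXPA5, EXPB4 and the flat probe sets fell outside this rule and were named after their values were seen. Alternatives were other array scalings, a filter on span, unmoderated tests, fits to fewer groups, a replicate block, no fold threshold and leaving out each array.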

Additional observations from a re-analysis of the deposited data

Results flagged for a closer look

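Differences of a response between genotypes or tissues that passed limma's test at an adjusted p of at most 0.05 are collected here as values. The difference in Pi response in roots, Dular minus PB1, was -1.44 and -1.60 for the EXLA2 probe sets, 0.51 for EXLA3, 0.72 for EXPA10 and 1.29 for EXPB3. In shoots it was -2.56 and -2.62 for EXLA2 and 1.07 for EXPA16. The difference in Pi response between Dular roots and Dular shoots was 0.54 for EXPA10, -1.08 for EXPA16 and 1.10 for EXPB3.

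The difference between Dular and PB1, roots minus shoots, under -Pi was 1.04 for EXLA1, 1.26 and 1.35 for EXLA2, 0.72 for EXLA3, -2.38 for EXPA2, 1.83 for EXPA3, -5.54 for EXPA6, -1.59 for the varying probe set of EXPA7, 1.48 for EXPA8, 1.94 for EXPB2 and 3.96 for EXPB8. Under +Pi it was 1.13 for EXLA1, 0.70 for EXLA3, -1.93 for EXLA4, -2.75 for EXPA2, 2.82 for EXPA3, -4.93 for EXPA6, 1.20 for EXPA8, -0.81 for EXPA10, 3.67 for EXPA29, 1.63 for EXPB2, -1.43 for EXPB3, 2.42 for EXPB8 and -2.95 for EXPB18. It was also called for EXPA4 (0.094), EXPA16 (0.57), EXPA32 (0.061) and EXPB10 (0.050), which were not called with each array centred on its median.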

How the results depend on the processing

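Counts below are expansin probe sets called, with the main count in brackets. Centring each array on its median gave 11 (13) for Dular against PB1 roots +Pi, against 13% of all probe sets. It gave 14 (17) for the genotype difference of roots minus shoots +Pi, against 21.4%. The other counts were equal. Quantile normalization gave 2 (1) for Pi in PB1 shoots and 5 (3) for the Pi response of Dular roots minus shoots. A fit to arrays of the same tissue gave 3 (5) for Pi in Dular shoots, 0 (1) for Pi in PB1 shoots and 1 (2) for Dular against PB1 shoots +Pi. A fit to the compared groups alone gave 2 (5), 0 (1) and 0 (2) for the same comparisons. In both fits EXPB8 and EXPB18 lost their call with Pi in Dular roots. Shares of all probe sets are not given here for these fits, the span filter or the replicate block. Requiring a span of at least 1 gave 1 (0) for the Pi response of PB1 roots minus shoots. Dropping the fold threshold, chosen after seeing the data, gave 12 (8) for Pi in Dular roots and 7 (5) in Dular shoots. Over all probe sets these shares were 18.3% and 7.74%. For Dular against PB1 it gave 16 (10) in roots -Pi, 27 (13) in roots +Pi, 10 (8) in shoots -Pi and 4 (2) in shoots +Pi. The shares of all probe sets were 28.9%, 62.2%, 24% and 22.4%. For Dular roots against shoots it gave 14 (13) under -Pi and 25 (15) under +Pi, against 29.5% and 56.3%. For PB1 roots against shoots it gave 18 (15) and 18 (13), against 30.6% and 29.7%. Leaving out each array in turn gave 5 to 8 for Pi in Dular roots, 0 to 2 in PB1 roots, 3 to 7 in Dular shoots and 0 to 1 in PB1 shoots. The shares of all probe sets were 6.93% to 7.57%, 4.26% to 4.9%, 1.58% to 2.66% and 0.891% to 1.96% in the same order. For the difference in response between genotypes, leaving out arrays gave 4 to 6 in roots and 3 to 4 in shoots. Between tissues it gave 2 to 4 in Dular and 0 to 1 in PB1. The shares of all probe sets were 9.14% to 12%, 2.33% to 4.46%, 6.17% to 9.57% and 4.17% to 5.35%. For Dular against PB1 the counts were 8 to 11 in roots -Pi, 10 to 12 in roots +Pi, 7 to 8 in shoots -Pi and 1 to 3 in shoots +Pi. The shares of all probe sets were 13.6% to 14.1%, 12.7% to 13.3%, 10.7% to 11.7% and 9.55% to 10.3%. For roots against shoots they were 13 to 14 in Dular -Pi, 14 to 15 in Dular +Pi, 15 to 16 in PB1 -Pi and 11 to 14 in PB1 +Pi. The shares of all probe sets were 16.4% to 16.9%, 15.8% to 16.2%, 16.8% to 18.1% and 15.4% to 16.3%. For the genotype difference of roots minus shoots the counts were 11 to 12 under -Pi and 12 to 21 under +Pi. The shares were 17% to 19.1% and 16.6% to 47.4%. Replicate numbers did not pair the arrays (mean r of deviations 0.02, with 14 of 84 pairs over 0.1). With the replicate block the counts were 9 (8) for Pi in Dular roots, 12 (13) for Dular against PB1 roots +Pi, 4 (5) for the genotype difference of the root response and 16 (17) for roots minus shoots +Pi, with the other counts equal. The pairs followed were those called in the main fit. Unmoderated tests, fits to fewer groups and the replicate block leave the change itself as it was, so no reversal was possible there. No named value reversed: of 2129 values under alternatives, 1987 kept their call and 142 lost it, and 111 of 142 gene and comparison pairs lost none. The cause was not tested. The planned search for promoter motifs was not run.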
